A study of Mus musculus with 219 samples.

Results

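The genes of the proteasome were followed in mouse embryos that had been fertilised at predefined sites of the oocyte. The members are the 49 genes, of 32285 in the count tables, whose symbol is Psma, Psmb, Psmc, Psmd, Psme, Psmf or Psmg followed by a number and at most one letter. The embryos came from oocytes of young adult B6C3F1 females injected with a sperm head of CD1 males (genotype B6C3F1xCD1 throughout), and the sperm head was released opposite the meiotic spindle (contralateral ICSI), beside it (ipsilateral, called isolateral in the labels) or halfway in between (equatorial). All sites therefore share injection, strain and culture in KSOM medium with amino acids, and no naturally fertilised embryo was analysed here. At the 2-cell stage (Theiler stage 2) the sister blastomeres were separated, and each was either lysed at once or cultured alone to a twin blastocyst (Theiler stage 5), while intact blastocysts came from embryos that were not bisected. Sister blastomeres and twins share an embryo, so their counts were summed and the embryo was the replicate: 55 2-cell embryos (21 contralateral, 21 ipsilateral, 13 equatorial), 19 twin pairs (6, 7 and 6) and 31 intact blastocysts (11, 8 and 12).

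The proteasome is the protease that degrades ubiquitinated proteins. Its 20S core is a barrel of 4 stacked rings, in which the alpha subunits (Psma genes) form the gate and the beta subunits (Psmb genes) carry the active sites, and the 19S particle (Psmc ATPases and Psmd non-ATPases) binds, unfolds and feeds in the substrate. Other caps open the core without ATP (Psme genes), dedicated chaperones assemble the particles (Psmg genes for the core, Psmd5, Psmd9 and Psmd10 for the base), and Psmf1 encodes the inhibitor PI31. In oocytes and early embryos the proteasome removes maternal proteins during meiosis, fertilisation and the first cleavages.

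Total counts per summed 2-cell embryo had a median of 2683481 (1255481 to 3976094), those of summed twin pairs 2200256 (1676976 to 3095134) and those of intact blastocysts 705837 (234099 to 1254428). Equatorial 2-cell embryos had fewer counts (median 2179479) and fewer detected genes (13417) than contralateral (2675357 and 14152) and ipsilateral ones (3050508 and 14233). A part of this in the comparisons of sites was not tested beyond the fits with these covariates given below. The 2-cell embryos lay on 2 plates (42 and 13 embryos), and all blastocysts on plate 2. The cell labels were matched by their markers: the maternal transcripts Gdf9, Bmp15, Zp3, Dppa3, Oosp1 and Nlrp5 summed to between 3174 and 4870 CPM (the count of a gene scaled to a fixed library total) in 2-cell embryos, and the trophectoderm markers Cdx2, Krt8, Krt18, Gata3, Eomes and Tfap2c to between 2957 and 6377 CPM in intact blastocysts against at most 216 in 2-cell embryos.

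The members together held a median of 0.501% of the counts of a single blastomere and 1.10% of those of a single blastocyst. Their summed level was 5031 CPM in 2-cell embryos (3931 to 5794), 9451 CPM in intact blastocysts (7299 to 12584) and 12320 CPM in twin pairs (11097 to 13903), so that every blastocyst lay above every 2-cell embryo. These values are shares of a library. In whole-embryo RNA, a change in the number of cells of one type and a change in RNA per cell cannot be told apart.

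The members were unevenly filled at the 2-cell stage. The TPM scale divides the share of a gene by a length, here the union of its annotated exons, which can exceed the transcript present. On this scale the highest medians in 2-cell embryos were those of Psmb6, a catalytic subunit of the core (530 TPM), Psmb2, a structural beta subunit (470 TPM), and the activators Psme3 and Psme4 (422 TPM each). The other catalytic subunits were lower on the same scale, with 96.0 TPM for Psmb5 and 18.8 TPM for Psmb7. The lengths used for these were 899 and 3421 bases, and without a length their medians were closer, at 25.6 and 19.3 CPM. In intact blastocysts the order differed, with Psmb5 at 973, Psmb2 at 893 and Psmb6 at 729 TPM, and with Psme3 at 137 and Psme4 at 72.2 TPM. At the low end, the lid subunit Psmd13 had a median of 2.76 TPM in 2-cell embryos against 84.7 TPM in intact blastocysts.

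**Figure D1:**
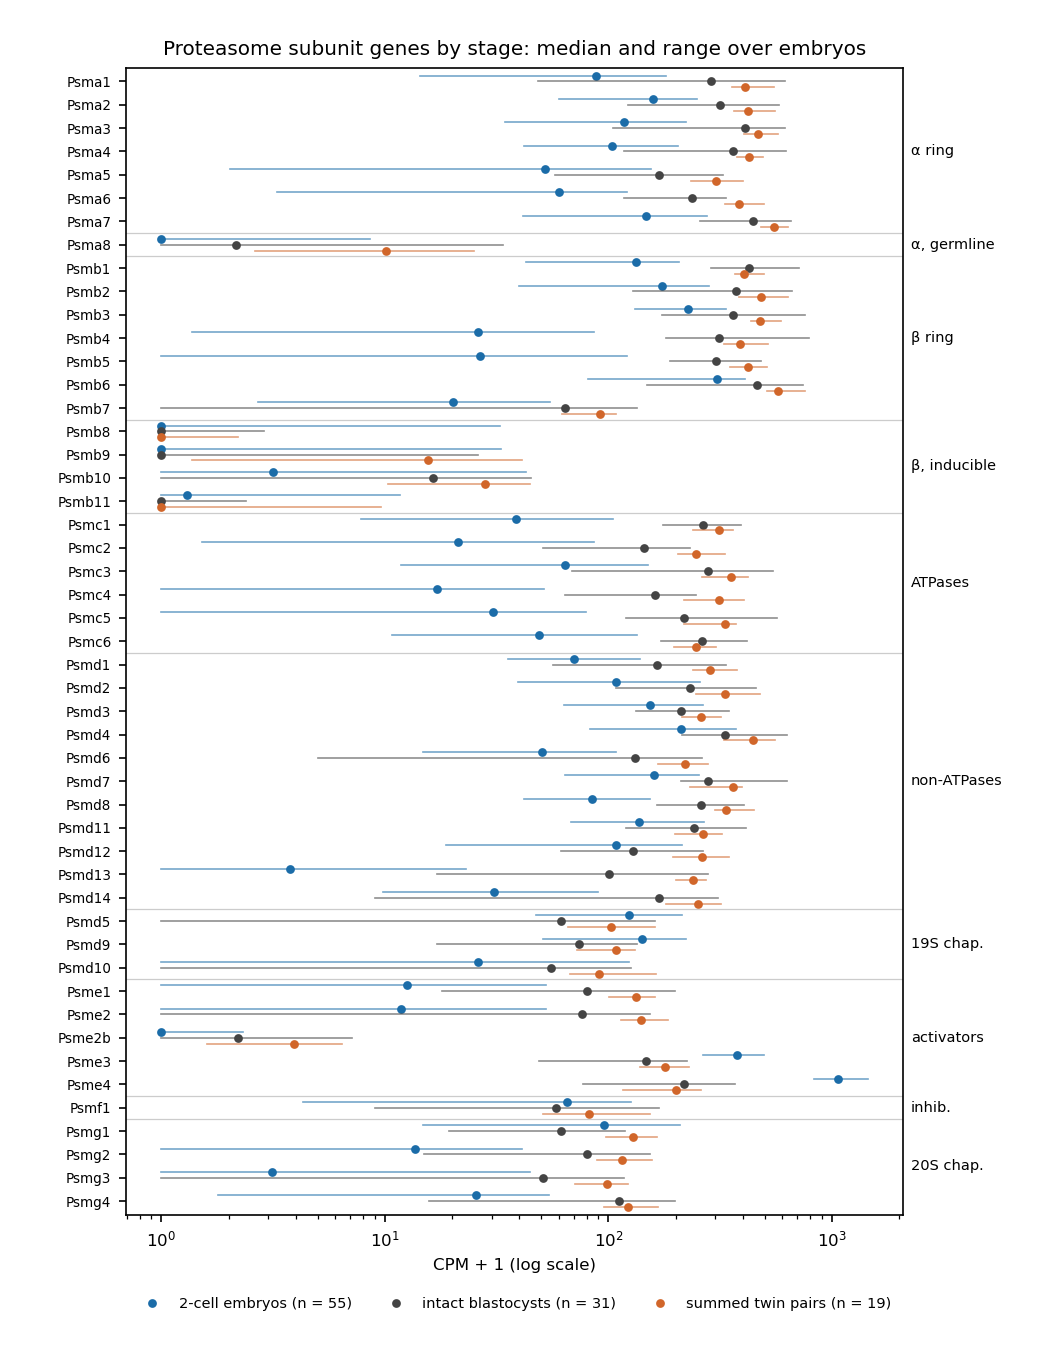
CPM + 1 (log axis) of the 49 members in 55 summed 2-cell embryos, 31 intact blastocysts and 19 summed twin pairs, grouped by role; the point is the median and the line the range over embryos. Most members lie lower in 2-cell embryos, and Psme3 and Psme4 lie wholly higher. Psma8, Psmb8, Psmb9, Psmb11 and Psme2b have medians near 0 in 2-cell embryos and intact blastocysts. In twin pairs the medians of Psmb9 and Psma8 are 14.6 and 9.09 CPM.

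The first comparison asked whether the fertilisation site was followed by a different level of proteasome transcripts in the 2-cell embryo. Contralateral and equatorial embryos differed in few members: Psma2, Psmb2 and Psmb6 of the core and the inhibitor gene Psmf1 were higher after contralateral ICSI by between 1.37-fold and 1.68-fold, and the 19S subunit Psmd3 and the nuclear activator Psme3 were lower. These are 6 of the 45 members tested, 4 higher and 2 lower, at an adjusted p under 0.05 in edgeR's quasi-likelihood test over all genes. Of all 13141 genes tested, 13.2% were called in this comparison, 7.12% higher and 6.06% lower, so the count of members is near the background. The median log2 fold change was 0.03 over the members and -0.00 over all genes.

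Psma2 (ENSMUSG00000015671, chr13:14613240-14674236 of GRCm38) encodes a subunit of the alpha ring. In contralateral embryos its level ran from 79.4 over a median of 178 to 249 CPM, in ipsilateral embryos from 94.8 over 157 to 204 CPM, and in equatorial embryos from 58.9 over 118.4 to 194 CPM. The ranges overlapped, but 19 of 21 contralateral embryos lay above the equatorial median. The fitted log2 difference between contralateral and equatorial embryos was 0.59 ± 0.13 (SE; adjusted p = 0.00131 by edgeR).

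Psmb2 (ENSMUSG00000028837, chr4:126677630-126709714) encodes a beta subunit without an active site and had the largest fitted rise of the 3 called core genes. Its level was 68.6, 189 and 282 CPM (lowest, median, highest) after contralateral, 91.6, 179 and 249 CPM after ipsilateral and 39, 120 and 248 CPM after equatorial ICSI. Of the contralateral embryos 20 of 21, and of the ipsilateral embryos 20 of 21, lay above the equatorial median. The log2 difference from equatorial embryos was 0.69 ± 0.16 for contralateral (edgeR adjusted p = 0.00189) and 0.52 ± 0.16 for ipsilateral embryos (edgeR adjusted p = 0.0344). The ipsilateral call was lost with total count and detected genes as covariates (log2 difference 0.35, edgeR adjusted p = 0.428) and in pairs with at most 2% mitochondrial counts (0.45, edgeR adjusted p = 0.0730).

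Psmb6 (ENSMUSG00000018286, chr11:70525367-70527858) encodes the beta subunit with caspase-like activity. Its level was 185, 311 and 407 CPM after contralateral, 248, 321 and 393 CPM after ipsilateral and 79.7, 245 and 348 CPM after equatorial ICSI. No ipsilateral embryo lay below the equatorial median, and 19 of 21 contralateral embryos lay above it. The log2 difference from equatorial embryos was 0.45 ± 0.11 for contralateral (edgeR adjusted p = 0.00259) and 0.41 ± 0.11 for ipsilateral embryos (edgeR adjusted p = 0.0121). A rank-sum test on the added TPM of sisters did not call it after contralateral ICSI, and the ipsilateral call was lost with total count and detected genes as covariates (log2 difference 0.36, edgeR adjusted p = 0.170). The other catalytic subunits were not called, with log2 differences between contralateral and equatorial embryos of -0.02 ± 0.46 for Psmb5, the chymotrypsin-like subunit, and 0.03 ± 0.30 for Psmb7, the trypsin-like subunit.

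Psmf1 (ENSMUSG00000032869, chr2:151715812-151744186), whose product PI31 was described as an inhibitor of the core, was higher after contralateral ICSI, with 38.7, 84.1 and 114.8 CPM against 3.31, 55 and 100.7 CPM in equatorial embryos. The log2 difference was 0.75 ± 0.23 (edgeR adjusted p = 0.0227), and 18 of 21 contralateral embryos lay above the equatorial median. This call was lost with total count and detected genes as covariates (log2 difference 0.60, adjusted p = 0.142) and in pairs with at most 2% mitochondrial counts (0.69, adjusted p = 0.0862). Ipsilateral embryos, with 31.8, 53.6 and 125.7 CPM, were split about the equatorial median, 10 above and 11 below.

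The lower members were Psmd3 and Psme3. Psmd3 (ENSMUSG00000017221, chr11:98682554-98695979), a scaffold subunit of the 19S lid, had 62.4, 133 and 265 CPM after contralateral, 84.1, 147 and 227 CPM after ipsilateral and 121.3, 205 and 246 CPM after equatorial ICSI. Its log2 difference between contralateral and equatorial embryos was -0.58 ± 0.15 (edgeR adjusted p = 0.00383), and 20 of 21 contralateral embryos lay below the equatorial median. Psme3 (ENSMUSG00000078652, chr11:101316213-101323537), which encodes the nuclear activator PA28 gamma, had 263, 364 and 480 CPM after contralateral, 290, 361 and 463 CPM after ipsilateral and 356, 451 and 495 CPM after equatorial ICSI. Its change was small but narrow: -0.26 ± 0.07 on the log2 scale for contralateral (edgeR adjusted p = 0.0067) and -0.32 ± 0.07 for ipsilateral embryos (edgeR adjusted p = 0.00378), with 19 of 21 embryos of either site below the equatorial median.

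The plates differed in these members. On plate 1 alone (18 of the 21 contralateral and 11 of the 13 equatorial embryos) all 6 members were called, with Psma2 at a log2 difference of 0.76 and Psmb2 at 0.86. These embryos are most of those in the pooled fit, so this is no independent repeat, and 16.9% of all genes were called there. On plate 2, with 3 contralateral and 2 equatorial embryos, there were too few for a test of their own, and the medians of Psma2 (178 against 192 CPM), Psmb2 (179 against 188 CPM) and Psmf1 (85.7 against 89.1 CPM) were lower in contralateral than in equatorial embryos. The medians of Psmb6 (345 against 310 CPM), Psmd3 (134 against 174 CPM) and Psme3 (458 against 476 CPM) had the sign of the pooled values there.

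**Figure D2:**
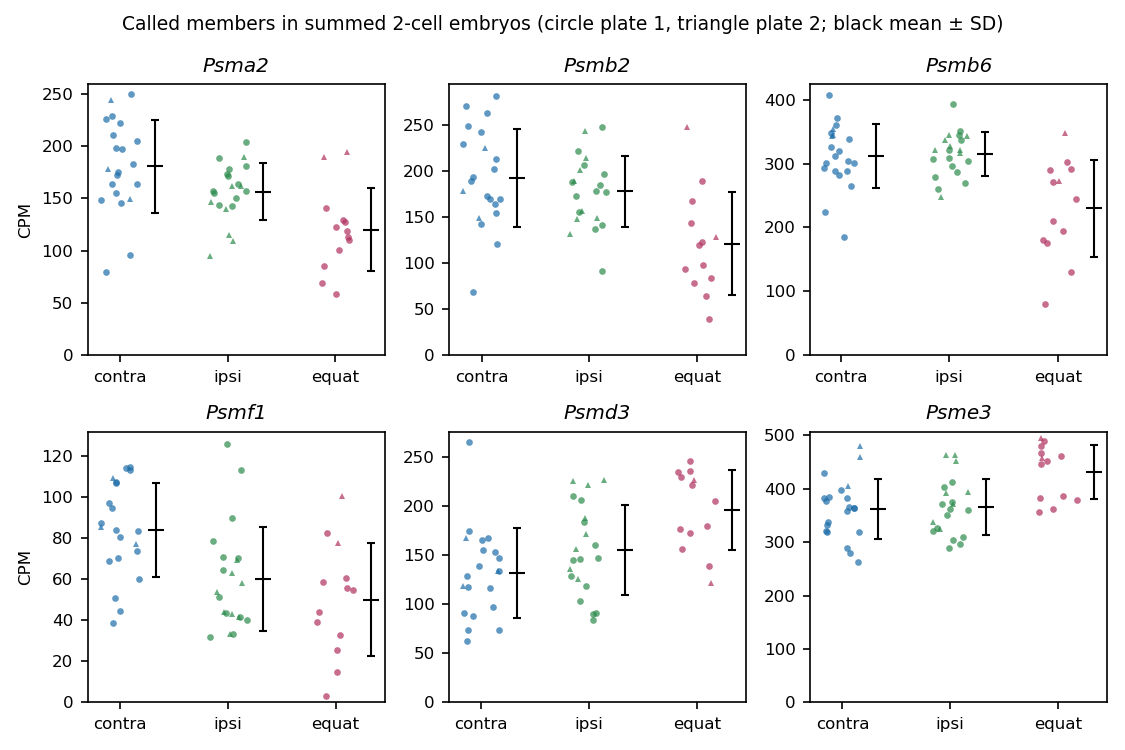
CPM of the 6 members called between contralateral and equatorial ICSI in each summed 2-cell embryo by site (21, 21 and 13 embryos; circles plate 1, triangles plate 2; black, mean ± SD). The ranges of the sites overlap for each gene, while 20 of 21 contralateral embryos lie above the equatorial median of Psmb2 and 20 of 21 below that of Psmd3.

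By role, 3 of the 14 standard core subunits were higher and none was lower, and of the 17 ATPases and non-ATPases of the 19S particle none was higher and 1 was lower. Of all 13141 genes tested, 7.12% were higher and 6.06% lower, and no class was tested against these shares. The 20S core summed to 1672 CPM in contralateral embryos (1124 to 2237), 1740 in ipsilateral (1195 to 2021) and 1408 in equatorial embryos (866 to 1829), and these ranges overlapped. On plate 2 the order of the core sums was other, with medians of 1695, 1606 and 1822 CPM. None of the 6 ATPase genes Psmc1 to Psmc6 was called, and their log2 differences ran from -0.20 to 0.40. Among members just short of the threshold were Psma1 (0.56 ± 0.20, edgeR adjusted p = 0.0501) and Psma5 (0.98 ± 0.35, edgeR adjusted p = 0.0522), both of the alpha ring, and Psmd2, a base scaffold subunit (-0.44 ± 0.18, edgeR adjusted p = 0.0821). Psma1 and Psma5 were both called by DESeq2. Psme4, the activator with the highest CPM at this stage, differed by -0.06 ± 0.06 between contralateral and equatorial embryos and was not called. A rank-sum test on the added TPM of sisters called both Psmd2 and Psme4. In CPM, 16 of 21 contralateral embryos lay below the equatorial median of Psme4.

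Ipsilateral against equatorial embryos gave 3 of 45 members, Psmb2 and Psmb6 higher and Psme3 lower, where 6.65% of all genes were called (3.43% higher and 3.22% lower). The 2 comparisons share their 13 equatorial embryos, so their values are not independent of each other. Psma2 (0.36 ± 0.13, edgeR adjusted p = 0.0901) and Psmd3 (-0.41 ± 0.15, edgeR adjusted p = 0.0915) missed the threshold here. Both were called on plate 1 alone, where 8.61% of all genes were called. The largest fitted difference was a fall of -1.42 on the log2 scale for the inducible beta subunit gene Psmb10, which was not called. The largest fitted rise, for the assembly chaperone gene Psmd10 (gankyrin), was 1.25 ± 0.48 and was not called either (edgeR adjusted p = 0.108). It was called by DESeq2 (adjusted p = 0.0386) and by the rank-sum test on CPM. With total count and detected genes as covariates no member was called between ipsilateral and equatorial embryos, and 51 rather than 874 of all genes were.

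Between contralateral and ipsilateral embryos none of 45 members was called by edgeR or DESeq2, where edgeR called 0.0% of all genes and DESeq2 0.474%. Without the low-count filter edgeR called 1577 of 24964 genes (6.32%), among them 1 member, Psmb8. At an unadjusted p under 0.05 there were 3 members (Psmf1 at 0.51, Psma4 at -0.31 and Psma2 at 0.23 on the log2 scale) and 555 of the 13141 genes. Among the members tested in blastocysts, none was called between ICSI sites in twin pairs (46 tested) or in intact blastocysts (44 tested) by edgeR or DESeq2, and 0.0% of all genes were called by edgeR in each. The unadjusted counts for contralateral against equatorial, ipsilateral against equatorial and contralateral against ipsilateral were 1, 2 and 7 members in twins and 1, 6 and 2 in intact blastocysts. Over all genes they were 728, 426 and 754 of 10995 in twins and 629, 338 and 522 of 9165 in intact blastocysts.

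**Figure D3:**
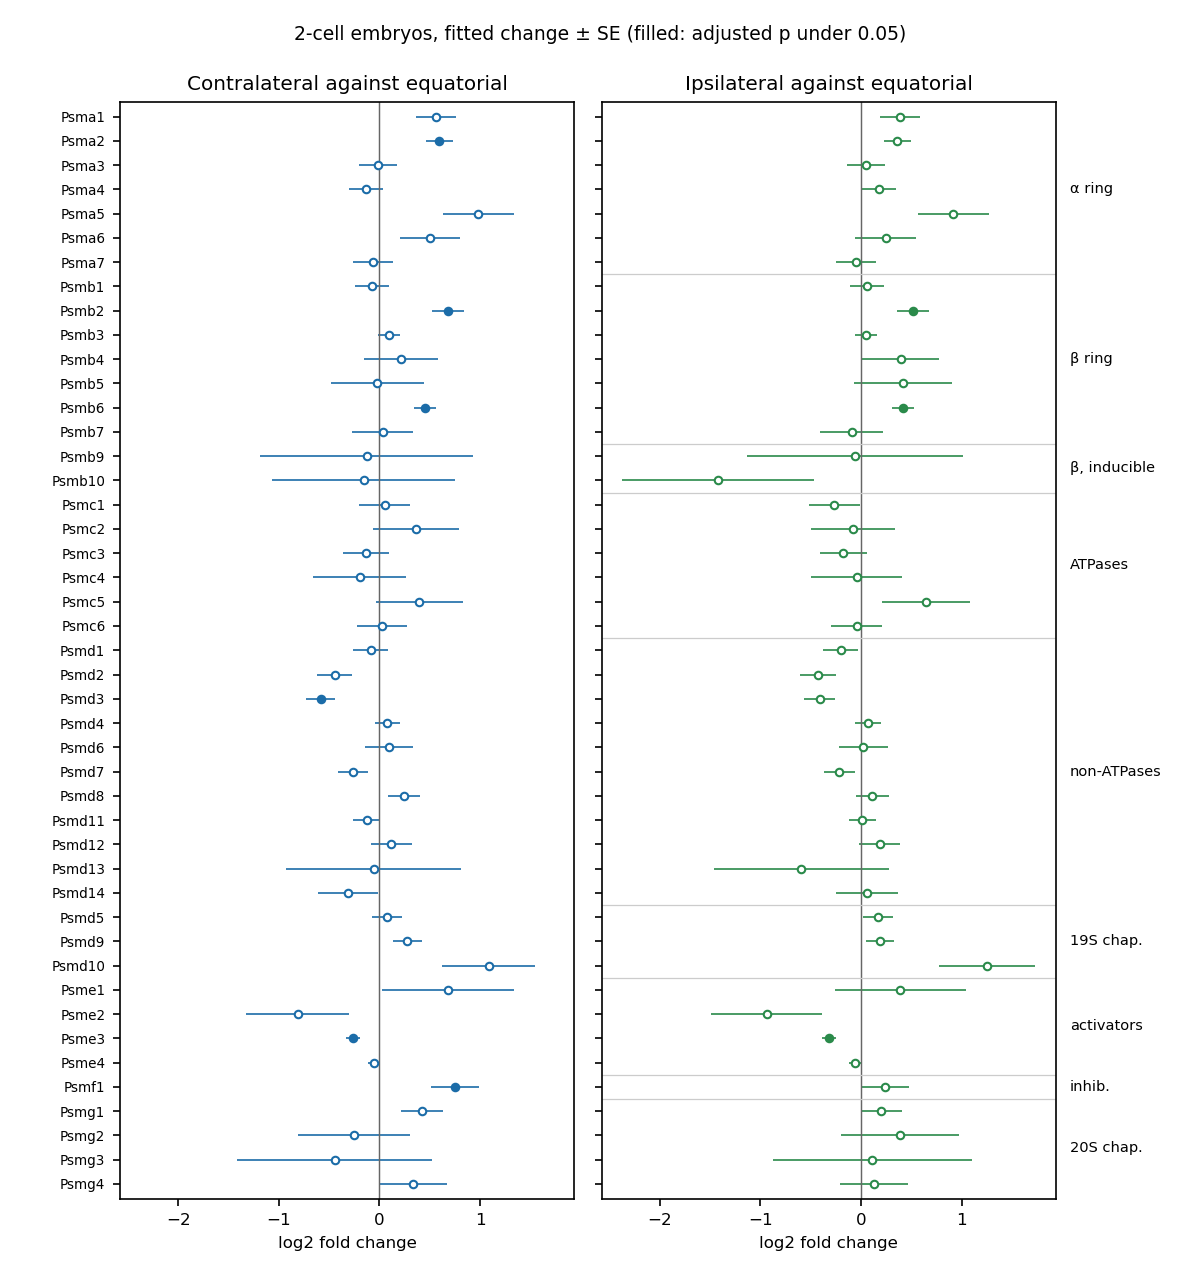
Fitted log2 fold change ± SE of the 45 members tested in 2-cell embryos, contralateral against equatorial (left) and ipsilateral against equatorial (right), by role; filled points have an adjusted p under 0.05. The filled points are Psma2, Psmb2, Psmb6, Psmf1, Psmd3 and Psme3 on the left and Psmb2, Psmb6 and Psme3 on the right, and both panels share the equatorial embryos.

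Other genes of the pathway were read from a list of 31 tested genes. Between contralateral and equatorial embryos 3 were higher and 6 lower, where 7.12% of all genes were higher and 6.06% lower. Nfe2l1, which encodes the transcription factor that induces proteasome genes when proteasome activity is short, had a median of 137 CPM after contralateral, 182 CPM after ipsilateral and 265 CPM after equatorial ICSI. Its log2 difference from equatorial embryos was -0.74 ± 0.15 after contralateral (edgeR adjusted p = 0.000315) and -0.60 ± 0.15 after ipsilateral ICSI (edgeR adjusted p = 0.0072). Ddi2, the protease that activates the Nfe2l1 protein, was also lower, with log2 differences of -0.60 (edgeR adjusted p = 0.000645) and -0.56 (edgeR adjusted p = 0.00464). Vcp, the ATPase that extracts ubiquitinated proteins, fell after contralateral ICSI (-0.98 ± 0.21, edgeR adjusted p = 0.00079). Pomp, which encodes the maturation factor of the core, was higher after contralateral ICSI (0.68 ± 0.16, edgeR adjusted p = 0.00211), with medians of 92.3, 80.3 and 61.9 CPM in contralateral, ipsilateral and equatorial embryos. Between ipsilateral and equatorial embryos 1 of the 31 was higher, the ubiquitin gene Ubb (0.46, edgeR adjusted p = 0.0114), and 3 were lower, Nfe2l1, Ddi2 and the shuttle factor gene Rad23b (-0.50, edgeR adjusted p = 0.00205). The shares over all genes were 3.43% higher and 3.22% lower there.

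The next comparison asked how far the monozygotic blastomeres of one embryo agreed in these genes. Summed over the 45 members tested, sisters differed by a median of 0.100 on the log2 scale, and 2 of 55 pairs differed by more than 1.25-fold. Blastomeres of different embryos of the same site and plate differed by 0.128 over 1272 comparisons. The widest pair, from an equatorial embryo, had 3676 and 4792 CPM. For the 14 standard core subunits the medians were 0.221 between sisters and 0.266 between embryos, and the widest pair, from a contralateral embryo, had 1242 and 2098 CPM.

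Gene by gene the agreement was loose. The intraclass correlation of sisters, after the means of site and plate were removed, had a median of 0.186 over the 45 members and 0.129 over all genes tested. Over all 62 pairs, without the minimum of detected genes, the median over the members was 0.0894. Among genes with a median of at least 10 CPM in single blastomeres it was 0.20 over 39 members and 0.173 over 8277 genes. The squared difference of sister counts was 16.1 times (median over members) that of counting error alone, against 14.9 times over all genes. A correlation over blastomeres shares their libraries and depth and is given here as a description.

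The highest intraclass correlations among members at or above 10 CPM were those of the alpha ring subunit Psma7 (0.617), the ubiquitin receptor Psmd4 (0.543) and the beta subunit Psmb3 (0.472). Psma7 ran from 37.0 over 150 to 333 CPM in the 110 blastomeres, and 51 of 55 pairs were within 2-fold. The pair with the highest values, after contralateral ICSI, had 237 and 295 CPM, and that with the lowest, after equatorial ICSI, 47.2 and 38 CPM.

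At the other end, Psma1 (-0.192), Psmd6 (-0.177) and Psma4 (-0.0580) showed no agreement of sisters beyond that of blastomeres at large. Psma1, of the alpha ring, was within 2-fold in 36 of 55 pairs, and its widest pair, after equatorial ICSI, had 0 and 138 CPM. Psmd6, a lid subunit, was within 2-fold in 29 pairs. Of the activators, Psme3 (0.0471) and Psme4 (0.311) were within 2-fold in 55 of 55 pairs, and Psme4 ran only from 793 to 1452 CPM over all blastomeres. The activators Psme1 (0.131) and Psme2 (0.0250), at medians of 8.59 and 8.57 CPM, were within 2-fold in only 21 and 16 of 55 pairs.

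**Figure D4:**
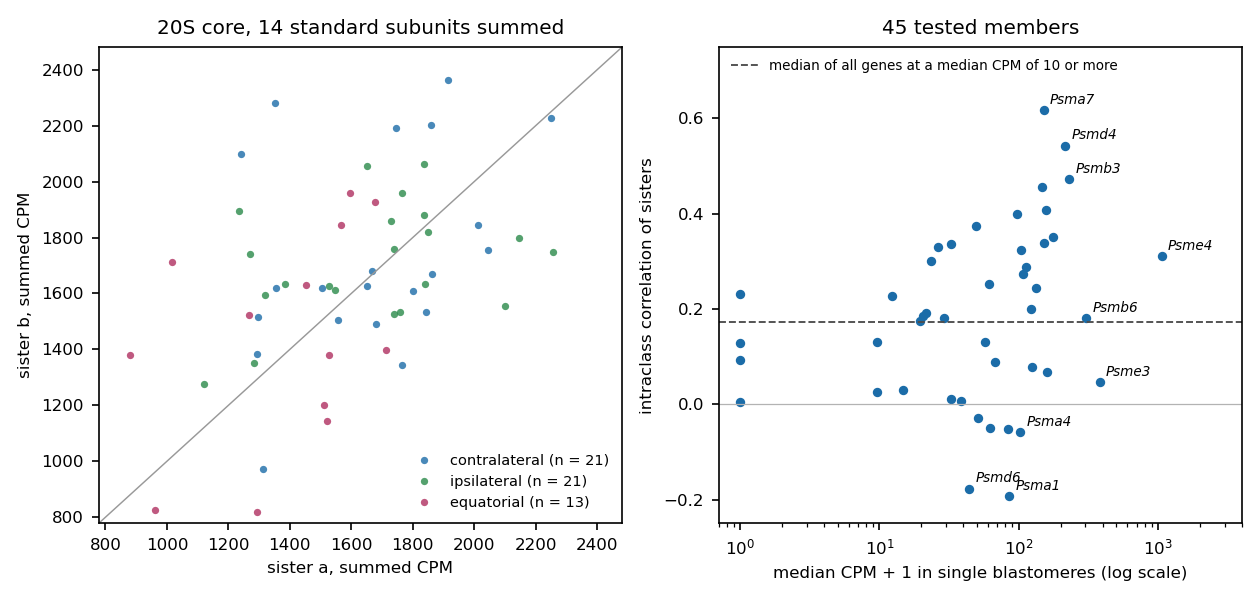
Left, summed CPM of the 14 standard 20S core subunits in sister a against sister b of 55 2-cell embryos, coloured by ICSI site, with the line of equality. Right, intraclass correlation of sisters against the median CPM + 1 in single blastomeres (log axis) for the 45 members tested, with the median of all genes at 10 CPM or more (0.173) as a broken line; Psma7 is highest and Psma1 lowest.

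Across the 55 summed embryos, after removal of site and plate means, the mean pairwise correlation of log2 CPM was 0.133 within the 14 core subunits, 0.0739 within the 17 subunits of the 19S particle, 0.0496 among all 45 members and 0.0036 among all genes tested. The points share library and depth, and these values are descriptions across genes. All genes were not matched to the members by level here. Their median CPM in single blastomeres was 21.9, against 60.7 over the members.

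Twin blastocysts were next compared with intact ones, which had not been bisected at the 2-cell stage. By the paper's methods, the blastomeres that gave twins were also taken out of the zona pellucida and cultured individually. An effect of bisection apart from these steps was not tested. Each twin pair sums the libraries of both twins, while an intact blastocyst is a single library. The ranges of twin pairs and intact blastocysts given below are therefore not directly comparable in width. Twin pairs had higher shares of proteasome transcripts: 26 of the 44 members tested were higher in twins by edgeR, none was lower, and the changes ran up to 2.10-fold. Over all 9379 genes, 42.3% were called, 20.4% higher and 21.9% lower in twins. The median log2 difference was 0.37 over the members and -0.01 over all genes, and 41 of 44 members had a positive one. At an unadjusted p under 0.05 there were 32 of the 44 members and 4649 of the 9379 genes. With twin a alone in place of the sum, edgeR called 25 members, 24 of them among the 26, and 37.7% of all genes. With twin b alone it called 27 members, 24 of them among the 26, and 41.2% of all genes. Psmc6 was among the others called with twin b, with a negative log2 difference.

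By role, 4 of 7 alpha subunits, 3 of 7 beta subunits, 3 of 6 ATPases and 8 of 11 non-ATPases were higher in twins. Of all genes tested, 20.4% were higher and 21.9% lower there, and no class was tested against these shares. All 3 base chaperones, 3 of 4 core chaperones and 2 of the 4 activators tested were higher as well, and Psmf1 was not called (0.37 ± 0.20, edgeR adjusted p = 0.133). The rank-sum test on CPM did call Psmf1. Psmd13, a lid subunit, was highest in fold. It ran from 200 over 239 to 273 CPM in twin pairs and from 16 over 99.3 to 277 CPM in intact blastocysts. The log2 difference was 1.07 ± 0.13 (edgeR adjusted p = 1.02e-09), and the highest intact blastocyst lay above every twin pair.

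Psmc4, an ATPase of the base, ran from 216 over 311 to 403 CPM in twin pairs and from 62.7 over 160 to 245 CPM in intact blastocysts, with a log2 difference of 0.91 ± 0.10 (edgeR adjusted p = 8.14e-11). The ranges overlapped only between 216 and 245 CPM. Psmd12, another lid subunit, had 194, 262 and 344 CPM in twin pairs and 60.1, 127.2 and 263 CPM in intact blastocysts (0.84 ± 0.11, edgeR adjusted p = 1.33e-08). Psma6, of the alpha ring, had 330, 385 and 498 CPM against 116.6, 235 and 336 CPM (0.63 ± 0.08, edgeR adjusted p = 1.1e-08). Psmg1, which encodes a chaperone of alpha ring assembly, had 96.8, 128.3 and 164 CPM against 18.3, 60.2 and 117.99 CPM (1.02 ± 0.16, edgeR adjusted p = 2.19e-07). In each of these genes the lowest twin pair lay below the highest intact blastocyst and above the intact median.

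The fitted log2 differences of the catalytic subunits Psmb5 and Psmb6 lay below the member median of 0.37, and that of Psmb7 lay above it. Psmb5 had 347, 419 and 513 CPM in twin pairs and 188, 303 and 478 CPM in intact blastocysts (0.28 ± 0.10, edgeR adjusted p = 0.0145), and Psmb6 had 511, 575 and 756 against 148, 463 and 742 CPM (0.23 ± 0.10, edgeR adjusted p = 0.0479). Psmb7, with 61, 91 and 106.9 against 0, 62.8 and 133 CPM, was not called (0.43 ± 0.21, edgeR adjusted p = 0.0862). It was called by DESeq2, by edgeR with RLE size factors and by the rank-sum test on CPM. Only Psme4 (-0.23 ± 0.11, edgeR adjusted p = 0.0892), Psmc6 (-0.21 ± 0.09, edgeR adjusted p = 0.057) and Psmb1 (-0.15 ± 0.10, edgeR adjusted p = 0.238) had negative log2 differences among the 44, and none was called in the fit of summed twins. Psmc6 was called with twin b alone.

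The activators Psme1 and Psme2, which form the interferon-inducible PA28 cap, were higher in twins by 0.62 ± 0.16 (edgeR adjusted p = 0.00129) and 0.90 ± 0.21 (edgeR adjusted p = 0.00026) on the log2 scale. Psme1 had 99.5, 131.4 and 161 CPM in twin pairs and 17.1, 78.9 and 198 CPM in intact blastocysts, and Psme2 had 113, 139 and 184 against 0, 75.3 and 153 CPM. Of the inducible beta subunits, Psmb10 had 9.30, 27.1 and 43.5 CPM in twin pairs and 0, 15.4 and 44.1 CPM in intact blastocysts (0.53 ± 0.33, edgeR adjusted p = 0.195). Psmb10 was called only by the rank-sum test on CPM. Psmb9 did not pass the low-count filter and was counted in all 19 twin pairs (0.372, 14.6 and 39.9 CPM) and in 13 of 31 intact blastocysts (at most 25.0 CPM). It was called by DESeq2, by edgeR without the filter and within equatorial ICSI. Twin pairs sum both libraries and had larger totals than intact blastocysts, so these numbers of embryos with a count are not directly comparable. Psmb8, another inducible subunit, was counted in only 1 of 19 twin pairs and 2 of 31 intact blastocysts. Markers of immune cells, which carry these subunits (Ptprc, Cd52, Cd74 and H2-Ab1), summed to at most 16.8 CPM in twin pairs and 17.6 CPM in intact blastocysts, with a median of 0 for Ptprc in both.

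Depth and lineage markers moved with this comparison. Intact blastocysts had fewer counts than the summed twin pairs (medians 705837 and 2200256). After every embryo was thinned to 234099 counts, 26 members were called, 24 of them shared with the counts as deposited, and 44.9% of all genes were. The totals as deposited did not overlap, with at most 1254428 counts in intact blastocysts and at least 1676976 in twin pairs. A fit with log2 total count as a covariate thus rests on extrapolation between the kinds. In that fit 17 members and 15.2% of all genes were called, and 9 of these members were among the 26. The median log2 difference was then 0.50 over the members and -0.14 over all genes. Psmd12 (0.29, edgeR adjusted p = 0.396), Psmg1 (0.73, edgeR adjusted p = 0.102), Psme1 (0.28, edgeR adjusted p = 0.619) and Psme2 (0.35, edgeR adjusted p = 0.606) were no longer called. The epiblast markers Nanog, Sox2, Pou5f1 and Fgf4 summed to between 227 and 451 CPM in twin pairs and between 24 and 277 CPM in intact blastocysts, the primitive endoderm markers Gata6, Gata4, Sox17 and Pdgfra to between 281 and 481 against 58.5 and 569 CPM, and the trophectoderm markers to between 2994 and 3724 against 2957 and 6377 CPM. Dppa3, a maternal and pluripotency gene, had a median of 546 CPM in twin pairs and 45.7 CPM in intact blastocysts, Cdx2 187 against 60.1 CPM and Eomes 343 against 627 CPM. The part of these markers in the proteasome genes was not tested.

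The twin difference was not shown to vary with the ICSI site. The test of the interaction called 0 of 46 members and 0.0% of all genes by edgeR, with 0 members and 246 of 10689 genes at an unadjusted p under 0.05, and no other tool was run on it. Within one site, 9 members were called after contralateral, 20 after ipsilateral and 7 after equatorial ICSI, against 11.7%, 35.7% and 7.81% of all genes. The median log2 difference over the members was 0.41, 0.34 and 0.40 at the 3 sites.

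Of the other pathway genes, 7 of 31 were higher and 12 lower in twins, where 20.4% of all genes were higher and 21.9% lower. The lowest against intact blastocysts were Zfand5 (-1.66 ± 0.12), whose product stimulates the 26S proteasome, and the shuttle factor genes Ubqln2 (-1.30 ± 0.14) and Rad23b (-0.98 ± 0.15), with edgeR adjusted p between 2.88e-17 and 1.32e-07. Nfe2l1 was lower in twins (-0.59 ± 0.14, edgeR adjusted p = 0.000626), with 71.1, 138 and 185 CPM in twin pairs against 116.6, 173 and 403 CPM in intact blastocysts. Pomp was higher (0.39 ± 0.10, edgeR adjusted p = 0.00155), with 253, 296 and 322 against 111.2, 207 and 312 CPM.

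The last comparison set the stages side by side. In 2-cell embryos most subunits had a lower share than in intact blastocysts, while Psme4 and Psme3 had a far higher one. Of the 44 members tested, 33 were lower and 5 higher at the 2-cell stage by edgeR, where 77.1% of all 12645 genes were called, 31.2% lower and 45.9% higher. The median log2 difference was -1.35 over the members and 0.41 over all genes. The shift of all genes moved with the scaling, to 0.10 with total counts alone (members -1.64) and to -0.06 on plate 2 alone (members -1.30), so differences are best read against it. Stage, lysis of single cells against whole embryos and, for most 2-cell embryos, plate cannot be told apart. On plate 2 alone 37 of 44 members were called, 36 of them shared, where 75.6% of all genes were called.

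Psme4 (ENSMUSG00000040850, chr11:30771726-30880361) encodes PA200, a cap that promotes ubiquitin-independent degradation, of acetylated histones among others. It had 834, 1061 and 1444 CPM in 2-cell embryos and 76.1, 218 and 367 CPM in intact blastocysts, without overlap. The log2 difference was 2.62 ± 0.09 (6.17-fold, edgeR adjusted p = 5.45e-46). Psme3 had 263, 376 and 495 against 48, 146 and 223 CPM, again without overlap (1.99 ± 0.11, edgeR adjusted p = 6.9e-31). In twin pairs the medians of Psme4 and Psme3 were 200 and 178 CPM. The other caps went the other way: Psme1 was lower at the 2-cell stage (-2.68 ± 0.57, edgeR adjusted p = 1.7e-05), with 0, 11.5 and 51.8 against 17.1, 78.9 and 198 CPM, and Psme2 likewise (-2.12 ± 0.49, edgeR adjusted p = 7.37e-05).

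The remaining higher members, Psmd9, Psmd5 and Psmg1, encode assembly chaperones. Psmd9 had 50.2, 141 and 222 CPM in 2-cell embryos against 16, 73 and 133 CPM (1.41 ± 0.15, edgeR adjusted p = 1.13e-14), and Psmd5 had 46.5, 122.2 and 213 against 0, 60.1 and 160 CPM (1.36 ± 0.22, edgeR adjusted p = 2.54e-08). Psmg1 was higher against intact blastocysts (1.24 ± 0.21, edgeR adjusted p = 8.71e-08), but with twin pairs in their place its log2 difference was -0.02. The other core chaperone genes were lower at the 2-cell stage, Psmg2 by a log2 difference of -1.96 ± 0.49 (edgeR adjusted p = 0.000212), Psmg3 by -4.06 ± 0.85 (edgeR adjusted p = 1.26e-05) and Psmg4 by -1.61 ± 0.31 (edgeR adjusted p = 2.38e-06). The base chaperone gene Psmd10 was not called (-0.89 ± 0.44, edgeR adjusted p = 0.0618). It was called by DESeq2, by the rank-sum test on CPM, and by edgeR with total counts alone, without the plate term or with twin pairs.

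All 7 alpha subunits, all 7 standard beta subunits and all 6 ATPases were lower at the 2-cell stage, as were 8 of 11 non-ATPases. Of all 12645 genes tested, 31.2% were lower and 45.9% higher, and no class was tested against these shares. The size differed widely among subunits of one ring. Psmb5 had 0, 25.6 and 120 CPM in 2-cell embryos against 188, 303 and 478 CPM in intact blastocysts, without overlap (-3.97 ± 0.44, edgeR adjusted p = 7.8e-14). Psmb4 had 0.374, 25.2 and 85.3 against 180, 313 and 789 CPM, without overlap (-3.70 ± 0.35, edgeR adjusted p = 1.3e-16). Psmb6, another beta subunit, had 79.7, 304 and 407 against 148, 463 and 742 CPM, with wide overlap (-0.31 ± 0.13, edgeR adjusted p = 0.0257), and with plate 2 alone it and Psmb3 were no longer called. Psmb7 had 1.69, 19.3 and 54 against 0, 62.8 and 133 CPM (-1.44 ± 0.33, edgeR adjusted p = 4.92e-05).

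In the 19S particle, Psmc1 had 6.79, 37.8 and 104 CPM in 2-cell embryos against 174, 264 and 391 CPM in intact blastocysts (-2.77 ± 0.22, edgeR adjusted p = 1.47e-20), and the ATPases together summed to 79, 236 and 389 against 1070, 1337 and 1858 CPM. No 2-cell embryo reached the ATPase sum of any blastocyst. Psmd13 had 0, 2.75 and 22.1 against 16, 99.3 and 277 CPM (-4.51 ± 0.67, edgeR adjusted p = 4.64e-09), the largest fitted difference of a member. Psmd3 (0.09 ± 0.14), Psmd4 (-0.26 ± 0.13) and Psmd12 (-0.04 ± 0.19) were not called. Psmd3 and Psmd12 were called by the rank-sum test on CPM and with twin pairs in place of intact blastocysts. In CPM, 45 of 55 2-cell embryos lay below the intact median of Psmd3, against the sign of its fit. Psmd4 was called by DESeq2, by the rank-sum test on CPM, and by edgeR with RLE size factors, with total counts alone, without the filter, without the plate term or with twin pairs, and not on plate 2 alone. In all, 8 called members lay lower in every 2-cell embryo than in any intact blastocyst (Psmb1, Psmb4, Psmb5, Psmc1, Psmc4, Psmc5, Psmc6 and Psmd8), and Psme3 and Psme4 lay higher in every one. The share of all genes without overlap was not computed, and 77.1% of all genes were called between these stages. Whether these counts of members are unusual was therefore not tested.

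**Figure D5:**
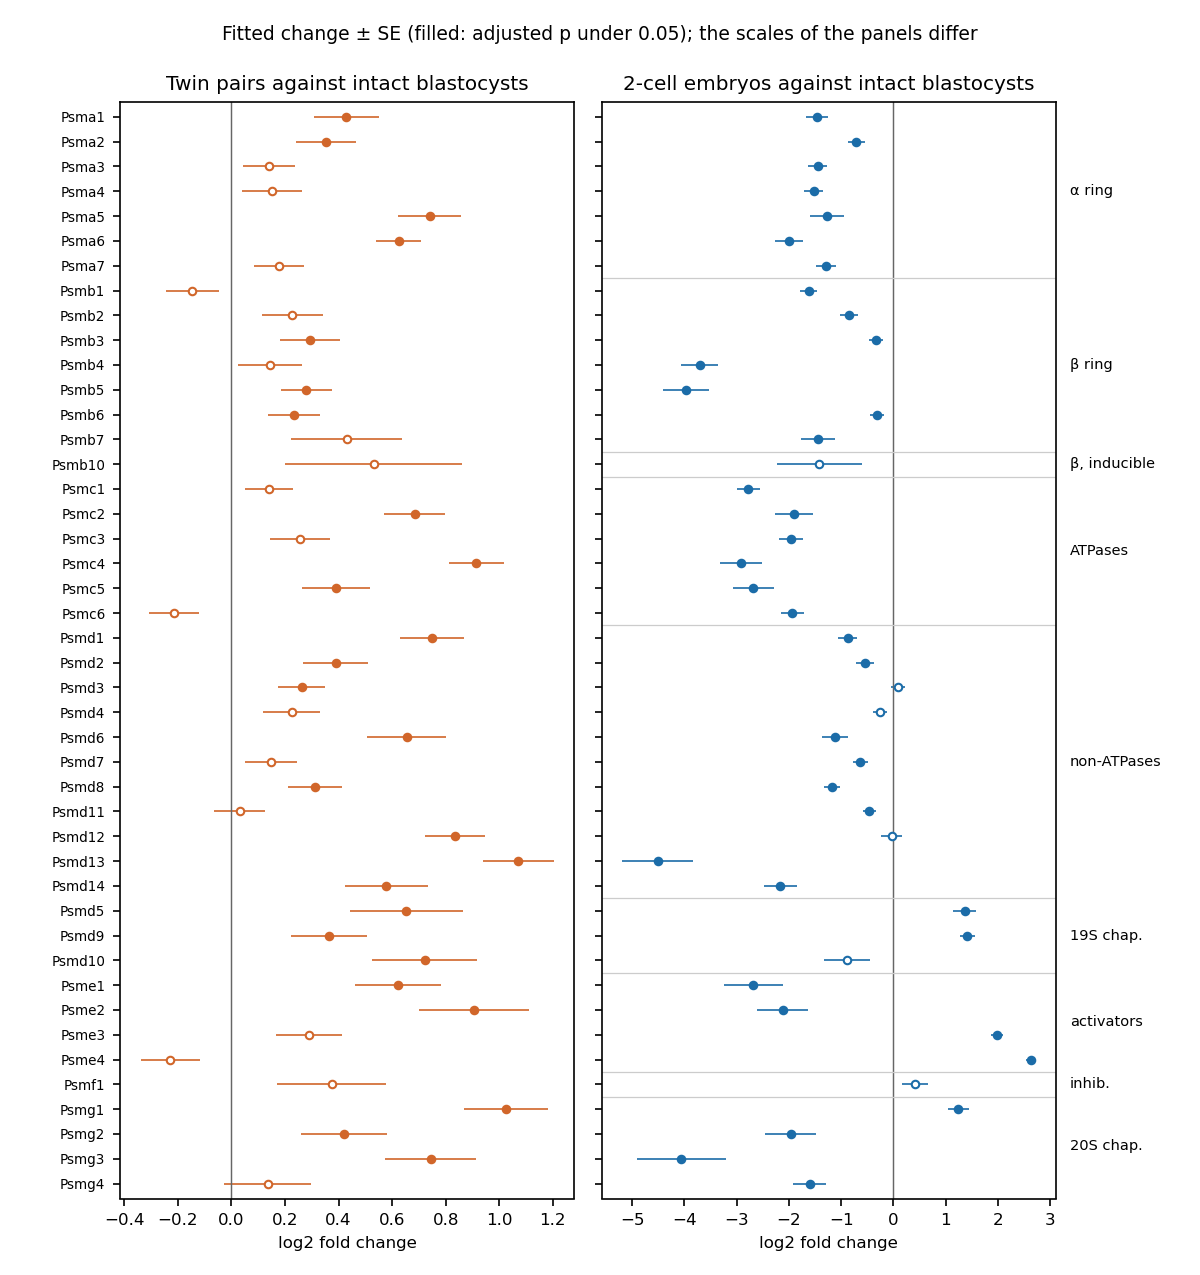
Fitted log2 fold change ± SE of the 44 members, twin pairs against intact blastocysts (left) and 2-cell embryos against intact blastocysts (right), by role; filled points have an adjusted p under 0.05, and the scales of the panels differ. On the left 41 points lie right of 0 and 26 are filled; on the right 33 members are filled and lower, and the 5 filled and higher are Psmd5, Psmd9, Psme3, Psme4 and Psmg1.

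Among the other pathway genes 8 of 31 were higher and 15 lower in 2-cell embryos. The shares over all genes were 45.9% higher and 31.2% lower, 77.1% together. The smallest p were those of Akirin2, which carries the proteasome into the nucleus (2.01 ± 0.12, 317 to 539 against 4.01 to 226 CPM, edgeR adjusted p = 1.18e-28), the ubiquitin fusion gene Rps27a (-2.30 ± 0.17, edgeR adjusted p = 2.68e-23) and the proteasome adaptor Ecpas (1.75 ± 0.13, edgeR adjusted p = 1.22e-21). Nfe2l1 had a median of 178 CPM in 2-cell embryos and 173 CPM in intact blastocysts and was not called (-0.12 ± 0.16, edgeR adjusted p = 0.512). Pomp was lower in 2-cell embryos (-1.19 ± 0.17, edgeR adjusted p = 9.91e-10).

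Because subunits of one complex differed in level and stage, their promoters were searched for 3 motifs on both strands: TGACNNNGC (the core of the antioxidant response element, bound by Nfe2l1 and Nfe2l2), CCAAT and GGAAGTG (an Ets-type site). Matches of different motifs may overlap. RefSeq promoters of GRCm38.p6, from 250 bases before to 50 after the start site, were matched for 41 of the 49 members. TGACNNNGC was held by 6 of the 41 (14.6%) against 12.4% of all 32841 promoters, CCAAT by 14 (34.1%) against 37.4%, and GGAAGTG by 8 (19.5%) against 11%. The members with TGACNNNGC were Psmb5, Psmb6, Psmc6, Psmd12, Psmd9 and Psme4. The 4 with it within 120 bases of the start site are printed below because they span the stage pattern, from Psmb5, among the lowest at the 2-cell stage, over Psmb6 to Psmd9 and Psme4, which were higher there. Each run covers 120 bases before and 20 bases after the start site on the strand of the gene, 5′ to 3′, and capitals mark TGACNNNGC or, in Psme4, its reverse complement. They lie at chr14:54617976-54618115 (minus strand), chr11:70525237-70525376, chr5:123228070-123228209 and chr11:30771655-30771794 (plus strand). The start site used for Psmd9 lies 58777 bases from the outer start of the gene model to which its reads were assigned.
Psmb5: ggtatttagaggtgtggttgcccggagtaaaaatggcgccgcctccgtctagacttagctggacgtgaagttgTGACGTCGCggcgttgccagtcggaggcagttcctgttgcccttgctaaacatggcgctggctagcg
Psmb6: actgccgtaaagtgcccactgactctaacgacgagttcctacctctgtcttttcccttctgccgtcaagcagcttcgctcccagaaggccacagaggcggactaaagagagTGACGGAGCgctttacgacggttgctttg
Psmd9: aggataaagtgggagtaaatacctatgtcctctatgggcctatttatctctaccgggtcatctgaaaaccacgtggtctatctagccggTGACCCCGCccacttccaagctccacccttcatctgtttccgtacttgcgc
Psme4: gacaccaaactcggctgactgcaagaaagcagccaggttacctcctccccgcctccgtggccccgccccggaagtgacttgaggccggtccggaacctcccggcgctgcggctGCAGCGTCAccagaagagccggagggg

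The motif lay from 47 to 39 bases before the start site in Psmb5, from 9 to 1 in Psmb6 and from 31 to 23 in Psmd9, and it spanned the start site in Psme4. Psmb5, which was lower in every 2-cell embryo, and Psme4, which was higher in every one, thus both hold these letters. A match is a description of sequence, and no binding was measured here.

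Some members could not be separated from other genes by the counting. A near copy of at least 50% of the transcript, at 97% identity or more and elsewhere in the genome, exists for 6 members, which are Psma5, Psmb3 and Psmb5 (processed pseudogenes), Psmd11 (A730017L22Rik) and the pair Psme2 and Psme2b. Exons of 14 members overlap those of another gene, such as Psmb9 with Tap1, Psmb7 with Nek6, Psmc3 with Slc39a13 and Psmd13 with Sirt3, and reads were counted without strand. The values of these genes are uncertain to that extent.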

How the data were processed

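Single blastomeres and single blastocysts were sequenced as full-length cDNA (SMART-Seq). The authors trimmed the reads (Trimmomatic 039, FastQC 0.12.1 in the submitters' processing notes), aligned them with STAR 2.7.10b to GRCm38 with GENCODE M23, without strand, and deposited whole-number counts per gene and sample, not normalized, for 125 blastomeres and 69 blastocysts. A further 25 blastomere samples in the labels were not analysed here. Reads carry no molecular identifiers, and precision from counts covers counting error only.

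Sites, pairs and plates came from the labels. Kept were pairs with at least 9500 detected genes in both blastomeres (55 of 62 pairs) and blastocysts with at least 4000. Counts of sisters and of twins were summed. All genes passing filterByExpr were tested with edgeR 4.0.16 (R 4.3.3, limma 3.58.1, TMM, robust quasi-likelihood test, Benjamini-Hochberg adjustment, threshold 0.05). The site was a term in the blastocyst and stage fits and the plate in the 2-cell and stage fits. SE is the log2 fold change divided by the square root of F. CPM and TPM were computed here, TPM with union exon lengths of GENCODE M21, and sister agreement from log2(CPM + 1). Other software was Python 3.11.15, numpy 2.4.6, pandas 2.3.3, scipy 1.17.1, matplotlib 3.10.9 and blastn 2.17.0. The scripts were tested on simulated data.

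Genes are named by this rule: in each main comparison up to 5 members higher and up to 5 lower with the smallest p, the catalytic and inducible beta subunits, Psme1 to Psme4, Psma8, the 3 highest and 3 lowest intraclass correlations, and of the pathway list the 3 smallest p with Nfe2l1 and Pomp. Other members were named after their values were seen. The members and lists were chosen with earlier results of these data known. Alternatives were DESeq2 1.42.0, other scaling, no filter, plate, depth, blastomere filters and rank-sum tests. The study injected the 3 sites on shared days. The day of each embryo is not given in the sources used here, and p-values measure the spread between these embryos.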

Additional observations from a re-analysis of the deposited data

Results flagged for a closer look

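In groups of 4 to 10 embryos the highest and lowest values of the named members and of the member sums were set against the rest of their group by Dixon's criterion, which chance meets in about 1 in 20 groups. It was met in 2 of 64 groups. Psmb6, the caspase-like subunit, was at 756 CPM in 1 of the 6 contralateral twin pairs, while the other twin pairs of that site lay between 551 and 600 CPM. All 49 members summed to 13685 CPM in 1 of the 7 ipsilateral twin pairs, while the next was at 12103 CPM.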

How the results depend on the processing

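Of 499 alternative log2 differences of named members, 436 kept their direction and their side of the threshold, 24 were weaker and 19 stronger, and 20 changed sign. Between ipsilateral and equatorial 2-cell embryos, where 3 members were called, the count was 5 on plate 1 alone, 5 with a rank-sum test on CPM, 5 with one on added TPM and 0 with depth covariates. Between contralateral and ipsilateral embryos 1 member (Psmb8) was called without the low-count filter. Between twin and intact blastocysts, 17 were called with total count as covariate, 9 within contralateral and 7 within equatorial ICSI, where fewer embryos enter, against 26. Counts in the other alternatives were within 1.5 times, and between twin and intact blastocysts they ran up to 39 with the rank-sum test on CPM. The sign of some differences changed as follows, and the cause was not tested. For contralateral against equatorial embryos, Psmb5 was at 0.00025 without the filter, 0.11 with at most 2% mitochondrial counts, 0.0059 with all pairs and 0.0021 in DESeq2, Psmb7 at -0.019 with depth covariates and -0.0033 with the mitochondrial limit, Psmb9 at 0.096 on plate 1, and Psmb10 at 0.12 with depth covariates and 0.17 with all pairs. For ipsilateral against equatorial embryos, Psmb7 was at 0.046 with the mitochondrial limit, Psmb9 at 0.11 without the plate term and 0.047 with all pairs, Psme1 at -0.028 and Psme4 at 0.019 with depth covariates. For twin against intact blastocysts with total count as covariate, Psmb1, not called at -0.15, was called in the opposite direction at 0.53 (edgeR adjusted p = 0.0131), Psmb10 went from 0.53 to -0.81, Psmb7 was at -0.27 and Psmc6 at 0.072, and within ipsilateral ICSI Psmb10 was at -0.15. For 2-cell embryos against blastocysts, Psmg1 was at -0.025 with twins. The median intraclass correlation was between 0.0894 (all 62 pairs) and 0.198. No paired analysis was possible because the embryos carry numbers that no 2 sites share.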

Other observations

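Psma8, Psmb8, Psmb11 and Psme2b did not pass the low-count filter in the 2-cell, twin against intact or stage comparisons, and Psmb9 passed it only in the first of these. Psma8, the alpha subunit of the spermatogenic proteasome, was counted in 6 of 55 2-cell embryos, in 17 of 31 intact blastocysts (at most 32.8 CPM) and in all 19 twin pairs (1.63 to 24 CPM). Summed units had larger totals than intact blastocysts, so these numbers of embryos are not directly comparable. Psmb8, an inducible catalytic subunit, was counted in 10 of 55 2-cell embryos (at most 31.9 CPM) and was at or below 1.87 CPM in every blastocyst. Psmb9, its inducible partner, was counted in 24 of 55 2-cell embryos. Psmb11, the thymic subunit, reached 10.7 CPM in 2-cell embryos and 8.59 CPM in twin pairs. Psme2b, a near copy of Psme2, reached 6.16 CPM in intact blastocysts.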
